A study of Mus musculus with 6 samples.

Results

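Oocyte NLRP genes were examined in 6 iPS (induced pluripotent stem) lines of the mouse, to see whether the low Nlrp4f signal of the E-cadherin knockdown lines extends to its paralogues. The group is Nlrp2, Nlrp4a, Nlrp4b, Nlrp4c, Nlrp4e, Nlrp4f, Nlrp5, Nlrp9a, Nlrp9b and Nlrp14, listed by family name, and all 10 were measured among 19938 genes. Each has 1 probeset that carries its symbol alone. Nlrp4f was chosen by its lower log2 value in the shECAD clones, in this same contrast, so its values are a description without a test. The 9 other genes were tested.

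Every line came from OG2 mouse embryonic fibroblasts (MEFs) that had received retroviruses for Sox2, Klf4, Oct4 and c-Myc, and was kept on feeder cells in mESC medium. The 3 shECAD clones (4, 8 and 9) also received E-cadherin shRNA, and the 3 control clones (2, 3 and 4) Luciferase shRNA. Cells went onto feeders on day 6, colonies were taken on day 14, and feeder cells were eliminated before the RNA was made. Each line is 1 clone and gave 1 whole-transcript array, so each group has n = 3 arrays, a number that sets the precision. No label describes separate infections, and p-values measure the spread between clones.

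NLRP proteins belong to the NOD-like receptors, which carry a nucleotide-binding NACHT domain and leucine-rich repeats. Some members, such as NLRP3, build inflammasomes in immune cells. A second set is transcribed mainly in oocytes and is known for maternal effects: the mRNA or protein is laid down in the egg and is used by the early embryo. Several of its products belong to the subcortical maternal complex, a protein assembly beneath the oocyte membrane. Mice carry an expanded set of Nlrp4 and Nlrp9 copies. In the RefSeq gene table, 9 of the 10 genes lie on chromosome 7, and Nlrp4f, the 1 exception, lies on chromosome 13.

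Cdh1, the gene of E-cadherin, read 6.75, 6.92 and 7.81 in shECAD clones 4, 8 and 9, against 9.18, 9.60 and 9.07 in control clones 2, 3 and 4 (log2 values). The difference, -2.13 ± 0.27 on the log2 scale (SE), passed the test (limma adjusted p = 0.00683), and a two-sided exact permutation test gave p = 0.1, the smallest that 3 clones against 3 allow. All 9 defining markers of pluripotent cells lay above the 95th percentile of olfactory receptor genes on all 6 arrays. Of 8 defining oocyte markers, 7 lay below that percentile on all 6 arrays (Gdf9, Bmp15, Zp1, Zp2, Oosp1, Nobox and Figla). The other 1, Zp3, exceeded it on every array except that of shECAD clone 9, where it read 4.64. The mean log2 level of the 8 ran from 3.82 to 4.04 in the shECAD clones and from 3.79 to 3.99 in the control clones. In a longer list of 24 oocyte markers, 16 lay below that percentile on all 6 arrays and 5 above it. The mean log2 level of 22 fibroblast and feeder markers ran from 7.13 to 7.44 in the shECAD clones and from 5.57 to 6.52 in the control clones, and 14 of them were higher in the shECAD clones at a limma adjusted p below 0.05, as were 1.9% of all genes. That count was 4 without shECAD clone 8, 7 without shECAD clone 4, control clone 3 or control clone 4, and 9 without shECAD clone 9. It was 15 without control clone 2. This list was chosen with earlier results of these data known, so the count is not independent evidence. The part of fibroblasts and feeder cells in the results below was not tested. In bulk RNA, fewer cells of a type and less RNA per cell cannot be told apart.

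The promoter windows of 3 Nlrp4 copies are shown first, since they bear on how close Nlrp4f is to its paralogues. The sequences are RefSeq's, of build GRCm38.p6, and run from 250 bases before to 50 after an annotated start. Capitals mark the stretch that a local alignment places opposite Nlrp4f and, in Nlrp4f, the stretch aligned with either of the others. The windows are chr13:65205667-65205966 on the minus strand for Nlrp4f, chr7:26435364-26435663 on the plus strand for Nlrp4a and chr7:10687571-10687870 on the plus strand for Nlrp4b.
Nlrp4f: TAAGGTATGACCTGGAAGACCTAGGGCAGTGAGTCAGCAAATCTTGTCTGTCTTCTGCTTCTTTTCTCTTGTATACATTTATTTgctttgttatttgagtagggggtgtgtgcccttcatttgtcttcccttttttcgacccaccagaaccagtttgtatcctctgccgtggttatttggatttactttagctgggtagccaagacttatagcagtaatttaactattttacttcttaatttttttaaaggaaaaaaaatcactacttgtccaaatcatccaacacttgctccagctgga
Nlrp4a: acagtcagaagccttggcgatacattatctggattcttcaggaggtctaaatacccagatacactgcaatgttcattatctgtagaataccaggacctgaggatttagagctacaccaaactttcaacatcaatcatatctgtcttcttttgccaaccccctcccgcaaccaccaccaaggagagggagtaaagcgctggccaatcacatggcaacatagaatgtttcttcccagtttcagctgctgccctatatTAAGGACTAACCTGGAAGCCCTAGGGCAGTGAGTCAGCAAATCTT
Nlrp4b: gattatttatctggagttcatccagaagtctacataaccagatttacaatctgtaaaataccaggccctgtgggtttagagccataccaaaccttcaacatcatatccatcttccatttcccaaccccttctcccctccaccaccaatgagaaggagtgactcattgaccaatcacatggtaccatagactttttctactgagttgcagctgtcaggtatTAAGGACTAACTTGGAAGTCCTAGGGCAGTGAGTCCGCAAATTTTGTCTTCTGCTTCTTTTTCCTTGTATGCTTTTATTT

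With the annotated start counted as position 1, the first 84 bases of the Nlrp4f window (positions -250 to -167) aligned with Nlrp4b from -30 to 50, with 83.3% identity over 84 columns. Of these bases, positions -250 to -206 also aligned with Nlrp4a from position 6 to 50, where that window ends, with 91.1% identity over 45 columns. The window of Nlrp4c held 17 such columns at its very end, from 34 to 50. The stretch that lies at the annotated start of the Nlrp4a and Nlrp4b windows shown thus lies well upstream of the annotated start in Nlrp4f. Both genes have another annotated start. The window of the other Nlrp4a start aligned with Nlrp4f over only 12 columns, from -192 to -181. That of the other Nlrp4b start aligned over 53 columns, from -2 to 50. It is chr7:10687543-10687842 and overlaps most of the Nlrp4b window shown, so it is largely the same sequence. The Nlrp4a window shown aligned over most of its length with Nlrp4b and Nlrp4c, with 75.3% identity over 304 columns for the other Nlrp4b window and 74.5% over 282 columns for Nlrp4c. The RefSeq table held 12 windows for 9 of the 10 genes, with the overlapping Nlrp4b windows counted separately.

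CpG dinucleotides, the sites of DNA methylation, were counted in each window. Nlrp4f had 2, a number that 23.3% of all windows did not exceed. The 12 windows had 0 to 9, where the median of all 32851 windows was 7. Among the genes closest in pattern to Nlrp4f, described further on, Phf11d had 3, Acsbg3 4, Zfp57 4, 6 and 9 in its 3 windows, Laptm5 9, Lrrc34 11, Sohlh2 17 and Sycp1 21. The germline genes Dazl and Ddx4 had 28 and 38. On both strands, TAATTG was present in 2 of the 12 windows and in 8.00% of all windows, and TAATTA in 2 and in 5.29%. CACGTG was found in 0 of the 12 windows and in 7.15% of all, and TGACGTCA in 0 and in 1.79%. CANNTG, which includes CACGTG, was found in 11 of the 12 windows and in 72.3% of all.

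Nlrp4f encodes a component of the subcortical maternal complex in the mouse, where it bears on the placing of organelles in the oocyte. Its probeset (10410187) read 5.35, 5.71 and 3.83 in shECAD clones 4, 8 and 9, against 6.96, 6.66 and 6.996 in control clones 2, 3 and 4. All shECAD clones lay below all control clones, as in 12.5% of all genes, and shECAD clone 9 lay far below the other shECAD clones. The group means were 4.96 ± 0.998 in the shECAD clones and 6.87 ± 0.19 in the control clones (SD, n = 3 clones each). That is a log2 difference of -1.91 ± 0.39 (SE), or 0.266 of the control signal on the linear scale. Over the 19938 genes, 6 had a lower log2 fold change. Without shECAD clone 9 the log2 fold change was -1.34, and without shECAD clone 8 it was -2.28.

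Olfactory receptor genes, which are largely silent outside the nose, served as a scale for signals of silent genes. Probesets differ in brightness at equal transcript level, so this gives a range and not a level of transcript. The 95th percentile of 1027 olfactory receptor genes was 4.57, 4.53 and 4.87 in shECAD clones 4, 8 and 9 and 4.61, 4.37 and 4.54 in control clones 2, 3 and 4. Nlrp4f exceeded it in shECAD clones 4 and 8 and in all 3 control clones, while shECAD clone 9 lay at the 78.1st percentile of the olfactory genes. Among all 19938 genes, Nlrp4f stood at the 48.2nd, 55.4th and 16.6th percentile in shECAD clones 4, 8 and 9, and at the 75.3rd, 69.2nd and 74.9th in control clones 2, 3 and 4. Of the 9 other genes, 7 lay below the olfactory 95th percentile on all 6 arrays. The exceptions were Nlrp4c, which exceeded it in 2 control clones, and Nlrp14, which did so in 1.

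**Figure D1:**
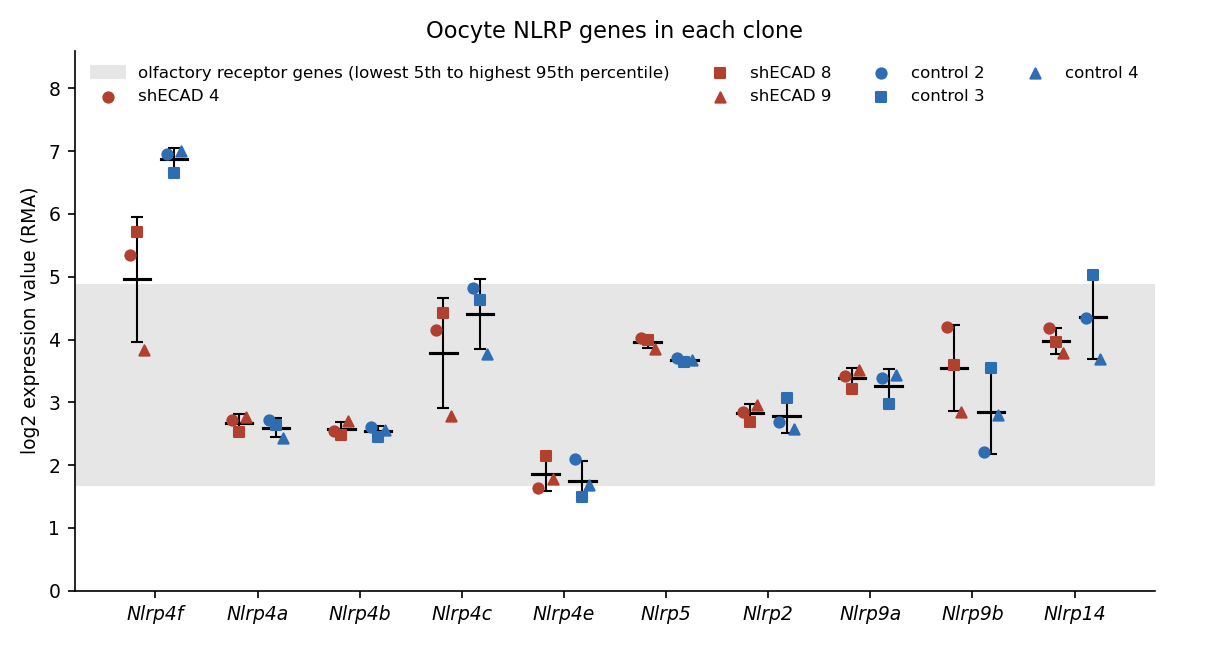
Log2 expression value (RMA) of each of the 10 genes in the 3 shECAD clones (red, left) and the 3 control clones (blue, right); black lines are group means and bars the SD, and the grey band runs from the lowest 5th to the highest 95th percentile of 1027 olfactory receptor genes over the 6 arrays. Nlrp4f lies above the band in all 3 control clones, from 6.66 to 6.996, and within it in shECAD clone 9 alone.

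Across the 9 other genes, 0 fell and 0 rose at a limma adjusted p below 0.05, and 0 had an unadjusted p below 0.05. Over all genes 1.23% were called lower and 1.9% higher, or 3.12% in either direction. A count of 0 calls in 9 is close to that background. For the unadjusted count no share of all genes is given, so it has no background. The median log2 fold change was 0.077 for the 9 genes and 0.025 for all genes. The adjusted p-values of the 9 ran from 0.344 to 0.920, and 7 of the 9 had a positive log2 fold change. For 7 of them the 95% interval of the log2 fold change lay above -1, which is a 2-fold fall, while those of Nlrp4c and Nlrp14 reached it. Those 7 genes are the same 7 that read below the olfactory 95th percentile in every clone, where a fall may not be measurable, so their intervals do not show whether they share the fall of Nlrp4f. Nlrp4c and Nlrp14, which exceeded that percentile in some control clones, left a 2-fold fall within their intervals. In 0 of the 9 genes did all shECAD clones lie below all control clones (12.5% of all genes), and in 1, Nlrp5, they all lay above (11.1% of all genes).

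**Figure D2:**
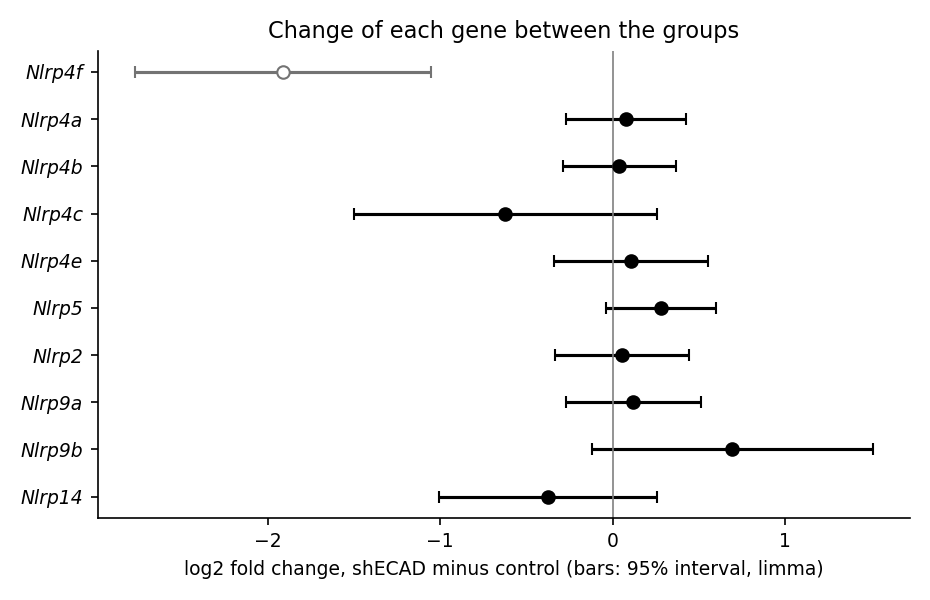
Log2 fold change (shECAD minus control) of each gene with its 95% interval from limma; the open grey symbol is Nlrp4f, which was not tested because its fall prompted the question. The intervals of Nlrp4c and Nlrp14 reach -1, and those of the 9 tested genes all include 0. The interval drawn for Nlrp4f comes from the contrast that picked this gene, so its place relative to 0 is no test.

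Of the Nlrp4 copies on chromosome 7, Nlrp4c had the largest difference. It read 4.15, 4.42 and 2.78 in shECAD clones 4, 8 and 9, against 4.82, 4.63 and 3.77 in control clones 2, 3 and 4. The groups overlapped, since control clone 4 lay below shECAD clones 4 and 8, and shECAD clone 9 was again the lowest. The shECAD clones differed by -0.62 ± 0.40 (SE) on the log2 scale, with a 95% interval from -1.50 to 0.26 (limma adjusted p = 0.451). Without shECAD clone 9 it was -0.12, and without control clone 4 it was -0.94. An extra probeset annotated to both Nlrp4e and Nlrp4c read 3.13, 3.08 and 2.87 in shECAD clones 4, 8 and 9, against 3.52, 3.48 and 3.01 in control clones 2, 3 and 4. Its log2 fold change was -0.31, with an interval from -0.71 to 0.096 (limma adjusted p = 0.459 among all probesets). Whether close copies share probes was not tested.

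Nlrp4a read 2.72, 2.52 and 2.77 in shECAD clones 4, 8 and 9, and 2.72, 2.64 and 2.43 in control clones 2, 3 and 4. Nlrp4b read 2.54, 2.48 and 2.71 in the shECAD clones and 2.61, 2.45 and 2.55 in the control clones, in the same order. Both genes, for which the promoter window shown shares a stretch with Nlrp4f, had overlapping groups. Their log2 fold changes were 0.077 ± 0.16 and 0.039 ± 0.15 (SE), with intervals from -0.27 to 0.42 and from -0.29 to 0.37. Nlrp4e, which is linked to preimplantation development in mice, read 1.64, 2.15 and 1.79 in the shECAD clones and 2.09, 1.49 and 1.68 in the control clones. These values lay between the 0.487th and the 20.4th percentile of olfactory receptor genes, and the log2 fold change was 0.10 ± 0.20 (SE). Each of the 3 genes lay below the olfactory 95th percentile in every clone.

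Nlrp5, also called Mater, encodes a founding member of the subcortical maternal complex, without which mouse embryos stop early in cleavage. It read 4.02, 4.00 and 3.85 in shECAD clones 4, 8 and 9, against 3.71, 3.64 and 3.68 in control clones 2, 3 and 4. The groups did not overlap, with shECAD the higher, but the difference was small: the log2 fold change was 0.28 ± 0.14 (SE), with an interval from -0.039 to 0.60 (limma adjusted p = 0.344). After quantile normalization the groups overlapped. The pseudogene Nlrp5-ps had a log2 fold change of -0.27, with an interval from -0.67 to 0.14. Nlrp2, another maternal-effect gene, read 2.84, 2.69 and 2.96 in the shECAD clones and 2.68, 3.07 and 2.57 in the control clones. Its groups overlapped, and the log2 fold change was 0.057 ± 0.18 (SE).

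Nlrp9b, which is known in mice from oocytes and from intestinal epithelium, varied widely in both groups, with SDs of 0.681 in the shECAD clones and 0.667 in the control clones. It read 4.20, 3.60 and 2.84 in shECAD clones 4, 8 and 9, against 2.21, 3.54 and 2.79 in control clones 2, 3 and 4. The groups overlapped, and the log2 fold change was 0.69 ± 0.37 (SE), with an interval from -0.12 to 1.51 (limma adjusted p = 0.358). Leaving out 1 clone gave 0.37 (without shECAD clone 4) to 1.05 (without shECAD clone 9). Nlrp9a, a copy of the same branch, read 3.42, 3.21 and 3.52 in the shECAD clones and 3.39, 2.97 and 3.44 in the control clones. Its log2 fold change was 0.12 ± 0.18 (SE), from -0.27 to 0.51.

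Nlrp14, which is needed for fertility in mice, read 4.19, 3.96 and 3.78 in shECAD clones 4, 8 and 9, against 4.34, 5.03 and 3.69 in control clones 2, 3 and 4. Control clone 3 stood above the rest and control clone 4 below all shECAD clones. The log2 fold change was -0.38 ± 0.29 (SE), with an interval from -1.01 to 0.26 (limma adjusted p = 0.538). Without control clone 3 it was -0.04, and without control clone 4 it was -0.71. The order of the clones in Nlrp14 was thus unlike that in Nlrp4f, where control clone 4 was the highest.

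Over the 6 clones, the genes whose pattern was closest to that of Nlrp4f were Sohlh2, Laptm5, Sycp1, Morc1, Lrrc34, Zfp57, Phf11d and Acsbg3. Closeness was the root mean square difference of log2 values after each gene was centred on its own mean, and it ran from 0.20 for Sohlh2 to 0.38 for Acsbg3. These genes were picked for the same pattern, so their changes are a description. Sohlh2, a transcription factor of early germ cells, read 6.28, 6.21 and 4.31 in shECAD clones 4, 8 and 9, against 7.66, 7.30 and 7.28 in control clones 2, 3 and 4. Sycp1, which joins paired chromosomes in meiosis, read 4.68, 4.77 and 3.29 in the shECAD clones and 5.79, 6.01 and 5.85 in the control clones. Zfp57, a zinc finger protein that keeps imprints methylated, read 8.52, 8.43 and 7.19 in the shECAD clones and 9.49, 9.08 and 9.49 in the control clones. Morc1, which represses transposons in male germ cells, read 7.11, 7.24 and 5.57 in the shECAD clones and 7.89, 7.66 and 8.03 in the control clones. In each of these genes, as in Nlrp4f, the groups did not overlap and shECAD clone 9 was the lowest. Laptm5, a lysosomal membrane protein gene of blood cells, had the same order of groups, with 7.51, 7.30 and 5.71 in the shECAD clones and 8.88, 8.14 and 8.87 in the control clones. Among the paralogues, Nlrp4c was closest to Nlrp4f, at 0.75 and place 308 of all genes. Nlrp14 followed at 1.04 and place 4547, and the other 7 lay at place 9292 or beyond. Without shECAD clone 9, its lowest clone, Nlrp4c had a log2 fold change of -0.12.

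**Figure D3:**
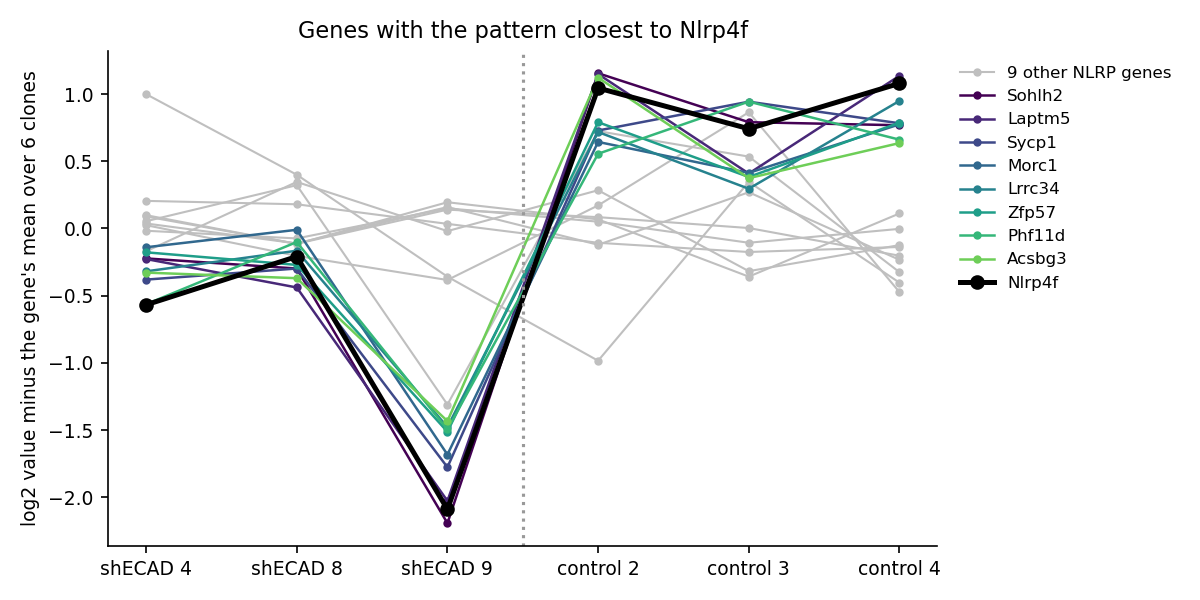
Log2 value of each gene minus its mean over the 6 clones, for Nlrp4f (black), the 8 genes with the closest pattern (colours) and the 9 other oocyte NLRP genes (grey), with shECAD clones left of the dotted line and control clones right; lines only join the points of a gene. Nlrp4f and the 8 genes are lowest in shECAD clone 9, and of the 9 grey genes Nlrp4c alone is lowest there too.

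The genes that work with the oocyte NLRP proteins were set beside them, from lists chosen with earlier results of these data known. Of 5 measured partners in the subcortical maternal complex, 0 rose and 0 fell by limma, against 1.9% and 1.23% of all genes. Among these partners 0 had an unadjusted p below 0.05, for which no share of all genes is given. Their median log2 fold change was -0.17. Ooep, which encodes a core subunit, read 8.44, 8.01 and 6.99 in shECAD clones 4, 8 and 9, against 8.25, 7.52 and 8.21 in control clones 2, 3 and 4. Its log2 fold change was -0.18, with an interval from -0.92 to 0.56. Khdc3, the gene of FILIA, had a log2 fold change of -0.29, from -0.94 to 0.36. Among 10 oocyte transcription regulators 1 fell and 0 rose, against 1.23% and 1.9% of all genes. It was Obox6, an oocyte homeobox gene, which read 4.33, 3.20 and 2.95 in the shECAD clones and 4.86, 5.64 and 5.68 in the control clones (limma adjusted p = 0.0204). It was not called without shECAD clone 8, shECAD clone 9, control clone 3 or control clone 4 (adjusted p up to 0.0775). The mean of its probesets gave a log2 fold change of -1.05 against -1.90. Sohlh2, also in this list, stood at -1.81 and narrowly missed a call (limma adjusted p = 0.0511). All shECAD clones lay below all control clones in 2 of the 10 (12.5% of all genes) and above in 1 (11.1% of all genes). Of 24 oocyte markers 1 fell and 0 rose, against the same shares of all genes, with a median of 0.092. The 1 was the germ cell helicase gene Ddx4, with a log2 fold change of -1.12 (limma adjusted p = 0.0318), which is also in the germline list. It was called without shECAD clone 8 but not without any other clone (adjusted p up to 0.0987).

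Several germline genes that act in both sexes or in the testis were lower in the shECAD clones. Of 27 measured members 8 fell and 0 rose at a limma adjusted p below 0.05, against 1.23% and 1.9% of all genes, and the median log2 fold change was -0.73. The 8 were Rbm44, Tex11, Dazl, Rnf17, Sycp1, Ddx4, Piwil2 and Piwil4, which bear on meiosis, germ cell RNA control and the piRNA pathway. This list had been described on these samples before and is not independent evidence. The count was 3 without control clone 3, 4 without shECAD clone 4 or control clone 4, 5 without shECAD clone 9 or control clone 2, and 7 without shECAD clone 8. Averaged over these 27 genes, the log2 level was 5.35, 5.42 and 4.77 in shECAD clones 4, 8 and 9, against 5.81, 6.11 and 5.80 in control clones 2, 3 and 4. It was lowest in shECAD clone 9, as was Nlrp4f, but that array also stood apart in other measures. Its gene values had an SD of 1.84, against 1.92 to 2.04 on the other arrays, its olfactory 95th percentile was the highest at 4.87, and its pluripotent markers had the lowest mean log2 level at 8.71. The part of these in the low values of clone 9 was not tested.

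Of 22 inflammasome and other NOD-like receptor genes, 0 rose and 0 fell by limma, against 1.9% and 1.23% of all genes. Among them 2 had an unadjusted p below 0.05, and the median was 0.065. Those 2 were Nod1 and Nlrc4, sensors of bacterial products, at -0.63 and -0.56 on the log2 scale (limma adjusted p = 0.215 and 0.226). Of 26 listed genes of the 2-cell-like state only 13 were measured, and of its 5 defining markers only 2. Of the 13, 0 rose and 0 fell by limma, against 1.9% and 1.23% of all genes. Among them 0 had an unadjusted p below 0.05, and the median was 0.0025. Pramel7 showed the largest change there, at 6.65, 6.09 and 3.53 in shECAD clones 4, 8 and 9 and 4.39, 4.05 and 3.73 in control clones 2, 3 and 4, with overlapping groups. Pramel6, of the same family, read 6.37, 5.61 and 4.36 in the shECAD clones and 5.52, 4.07 and 4.60 in the control clones, again with overlapping groups. In the list of the DNA methylation machinery, 2 of 15 fell and 0 rose, against 1.23% and 1.9% of all genes, with a median of -0.37. Uhrf1, which guides maintenance methylation, had a log2 fold change of -0.85 and Tet1, a demethylation enzyme gene, one of -0.79 (limma adjusted p = 0.0201 and 0.0462). Uhrf1 was not called without shECAD clone 4, shECAD clone 8 or control clone 4 (adjusted p up to 0.0931). Tet1 was not called without any 1 of the 6 clones (up to 0.162). Of 13 pluripotent cell markers 0 rose and 0 fell by limma, against 1.9% and 1.23% of all genes. Among these markers 5 had an unadjusted p below 0.05, and the median was -0.42. Their mean log2 level was 9.38, 9.40 and 8.71 in shECAD clones 4, 8 and 9, against 9.52, 9.30 and 9.67 in control clones 2, 3 and 4. Of 9 ovarian somatic markers 0 rose and 0 fell by limma, against the same shares, and 1, Cyp11a1, had an unadjusted p below 0.05. The share of all genes with an unadjusted p below 0.05 is not given here, so these unadjusted counts have no background.

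**Figure D4:**
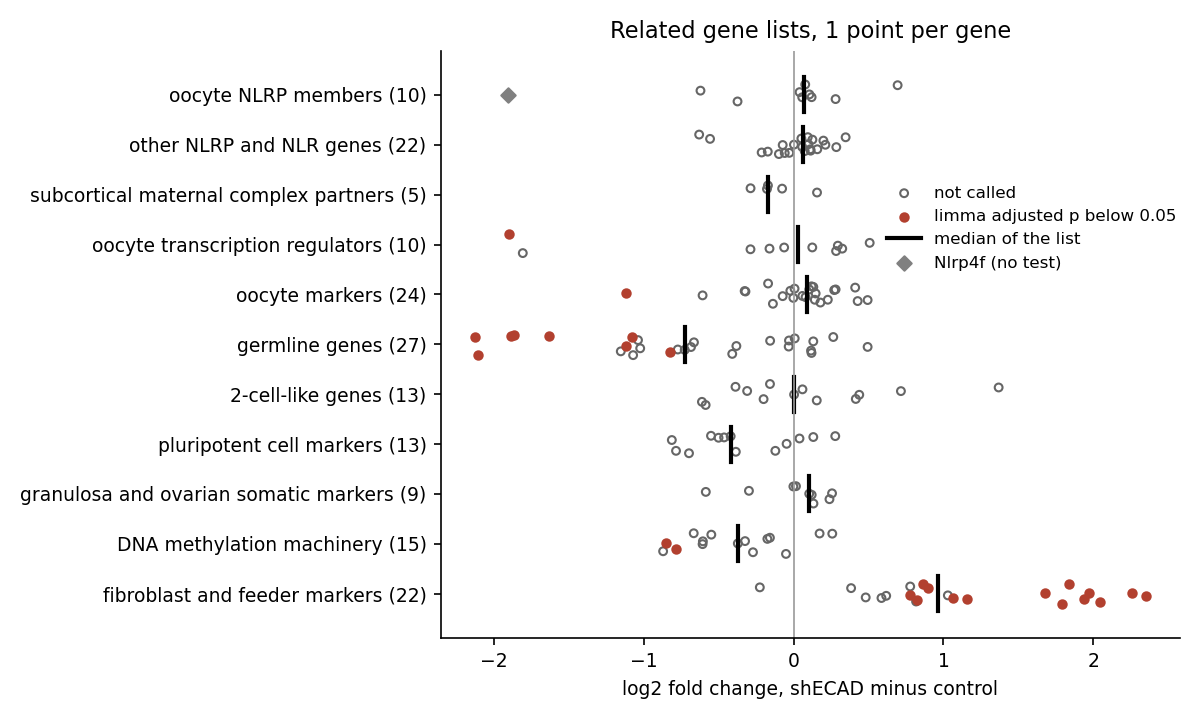
Log2 fold change (shECAD minus control) of each gene in 11 lists, with the number measured in brackets; red points have a limma adjusted p below 0.05, open points do not, black bars are list medians, and the grey diamond is Nlrp4f, which was not tested. Red points lie left of 0 in the germline list, 8 of 27, and right of 0 in the fibroblast list, 14 of 22.

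The measured genes nearest the members in the RefSeq order were mostly not called. Some of them lay far off, as Vmn1r72 did, 46 genes from Nlrp4b. Up to 3 measured neighbours on each side gave 40 different genes besides the members, with a median log2 fold change of -0.016. Of the 40, 1 fell and 0 rose (limma), against 1.23% and 1.9% of all genes. All shECAD clones lay below all control clones in 4 of the 40 (12.5% of all genes) and above in 1 (11.1% of all genes), so that neither count exceeded the background. The 1 that fell stood on the side of Nlrp4f after it, 45 genes further in the table. It is the pheromone receptor pseudogene Vmn2r-ps104, which read 5.42, 5.31 and 4.69 in shECAD clones 4, 8 and 9, against 6.74, 7.14 and 6.45 in control clones 2, 3 and 4 (log2 fold change -1.63, limma adjusted p = 0.0103). The closer genes on that side were Zfp369, a zinc finger gene, at -0.47 (limma adjusted p = 0.161), and the predicted gene Gm10139 at -0.92 (limma adjusted p = 0.0652). Their groups did not overlap either, with shECAD the lower. Together with Vmn2r-ps104 and with Zfp444, which follows Nlrp4c, they are the 4 of the 40 counted above. On the other side Olfr466, Mfsd14b and Prss47 had log2 fold changes of 0.17, -0.19 and 0.0037, with limma adjusted p-values of 0.638, 0.640 and 0.995.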

How the data were processed

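The deposited table holds log2 values of 28853 probesets on 6 arrays. The submitters' processing notes name RMA, which corrects background and normalizes between arrays, and the software Partek. Their versions, and a genome build, were not given in the sources used here. Arrays' gene medians ran from 5.29 to 5.49, and values were used as deposited. Probesets with 1 symbol in the platform annotation (21789) were kept, and the brightest over the 6 arrays stood for a gene, which left 19938 genes, with no filter. Names follow RefSeq (GRCm38.p6) for 21698 of these probesets, and 0 changed.

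The shECAD clones were compared with the control clones by limma 3.58.1 (lmFit and eBayes, R 4.3.3), with Benjamini-Hochberg adjustment over all genes and calls at an adjusted p below 0.05. The fit was tested on simulated data. Promoter windows were aligned locally with Biopython 1.88 (match 2, mismatch -3, gap opening -5, gap extension -2). Figures used matplotlib 3.10.9.

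The members and the lists were chosen with earlier results of these data known. The text names the 10 members, Cdh1, in each list up to 5 called genes or else the 2 largest changes, the 8 genes closest to Nlrp4f with predicted loci left out, and up to 3 measured neighbours on each side of a member. Other genes were named after their values were seen. Alternatives were median centring, quantile normalization, a filter on dim genes, other choices of probeset, other variance models, array weights, a threshold of 0.1, vomeronasal in place of olfactory receptor genes, and leaving out each clone. Protein identities were planned and not computed.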

Additional observations from a re-analysis of the deposited data

How the results depend on the processing

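Array number and signal limit what can be seen: with 3 clones a group, the intervals of Nlrp4c and Nlrp14 reached a 2-fold fall, and 7 of the 9 tested genes read below the olfactory 95th percentile on all 6 arrays, where a fall may not be measurable. Over 117 alternatives for the 9 genes, 0 passed the threshold, the lowest adjusted p was 0.110 (Nlrp9b), 105 kept the sign and 12 did not. With other choices of probeset or other variance models the sign could not change. Each gene has 1 probeset, and these variance models leave the log2 fold change as it was. After centring each array on its median the log2 fold changes were -0.034 for Nlrp2, -0.014 for Nlrp4a and -0.051 for Nlrp4b, and after quantile normalization that of Nlrp2 was -0.012. Leaving out 1 clone gave -0.046 to 0.21 for Nlrp2, -0.0053 to 0.15 for Nlrp4a, -0.026 to 0.086 for Nlrp4b, -0.042 to 0.27 for Nlrp4e and -0.030 to 0.21 for Nlrp9a. After quantile normalization 0 of the 9 genes, against 1, had all shECAD clones above all control clones. With vomeronasal in place of olfactory receptor genes, 2 members, against 1, exceeded the 95th percentile in all 3 control clones, and 5 of the 9 tested genes, against 7, lay below it on all 6 arrays (Nlrp5 exceeded it in 2 shECAD clones and 1 control clone, and Nlrp9b in 1 shECAD clone). Over all genes 623 were called, 245 of them lower. The lower calls were 383 after median centring, 402 among brighter genes alone and 374 with an intensity trend and robust prior. With every probeset on its own 241 were called, 88 lower. Without variance moderation 3 were called, 2 lower. With array weights 1067 were called, 423 lower, and at an adjusted p below 0.1 1278, 569 lower. Leaving out 1 clone gave 146 to 543 calls, 49 to 165 of them lower. Cdh1 stayed at -2.13 without variance moderation but was not called (adjusted p = 0.194). The germline list had 3 lower calls with every probeset on its own and 0 without variance moderation, where the fibroblast list had 6 and 0 higher calls (alternatives chosen after seeing the data). The causes were not tested. No paired analysis was run, since the labels pair no shECAD clone with a control clone. Limiting the fit to brighter genes left 0 of the 9 genes, and the protein identities with their local alignment were not run.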
